A study of Homo sapiens with 6 samples.

Results

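The sites lost in knockdown were the regions of chromosomes 1 to 22 that were called accessible in 2 or 3 control libraries and in no library with knockdown of ZNF436. They numbered 1276, which was 0.833% of the 153162 regions on these chromosomes, of 157560 regions in all. A region is the union of peaks from the 6 peak lists that shared at least 1 bp. The sites were chosen by the authors' peak calls themselves, so their absence from the knockdown lists is their definition and not a finding. What follows describes them without a test unless one is named. The opposite pattern, a call in 2 or 3 knockdown libraries and in no control library, held for 29454 regions (19.2%), and 27889 regions (18.2%) were called in all 6 libraries.

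The assay was ATAC-seq: the transposase Tn5 cuts open chromatin and leaves sequencing adapters there. The cells were ventricular-like cardiomyocytes at day 15 of differentiation from H9, a human embryonic stem cell line, with 50000 cells per library. The groups were ZNF436 knockdown (3 libraries) and control (3 libraries). Both groups went through the same cardiomyocyte differentiation of this 1 line, and the replicates were independent differentiations. The labels do not say how the knockdown was made, and the knockdown itself was not checked here. The deposited data were 1 list of peaks per library on hg19, with a score for each peak and no read counts, so that depth is unknown. The knockdown lists held 115864, 102454 and 87871 peaks (replicates 1, 2 and 3), against 50719, 53662 and 68342 in the control lists. The part of list length and depth in the calls cannot be told apart from the group.

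ZNF436 belongs to the KRAB zinc finger proteins, a large family of DNA-binding repressors. Many of them bind transposon sequences and recruit the corepressor TRIM28, which brings in the machinery for repressive histone methylation. An accessible site in ATAC-seq is typically a promoter, an enhancer or another stretch of DNA freed of nucleosomes. At 8 loci of well-known cardiac genes, placed by textbook positions on hg19, each locus held at least 1 region called in all 6 libraries, 75 in sum. These loci were MYH6 and MYH7, NPPA and NPPB, TNNT2 and TNNI1, TTN, ACTN2 and RYR2, TBX5, CACNA1C and KCNQ1. Of their 430 regions, 1 (0.233%) was a site lost in knockdown, against 0.833% of all regions, and it lay at KCNQ1, a potassium channel gene of cardiac repolarisation. The opposite pattern held for 78 (18.1%), against 19.2% of all regions.

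The lost sites were narrow and low in the rank of their own lists. Their median width was 303 bp, with a range of 129 to 1190 bp and quartiles at 239 and 408 bp. Regions with the opposite pattern had nearly the same median, 300 bp, whereas regions called in all 6 libraries had a median of 875 bp. A single peak per calling library made up 1263 of the 1276 sites. The score percentile of a peak is its mid-rank, the share of peaks in its own list with a lower score plus an equal split of the ties, and a region takes its best peak. The median percentile of the lost sites was 27.7 in control replicate 1, 28.4 in control replicate 2 and 24.0 in control replicate 3. Regions called in all 6 libraries had medians of 68.8, 72.0 and 77.0 in the same lists. Above the middle of the list stood 184 of 980 lost sites called in control replicate 1, 243 of 1066 in replicate 2 and 55 of 703 in replicate 3. Above percentile 90 stood 2, 4 and 1.

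**Figure D1:**
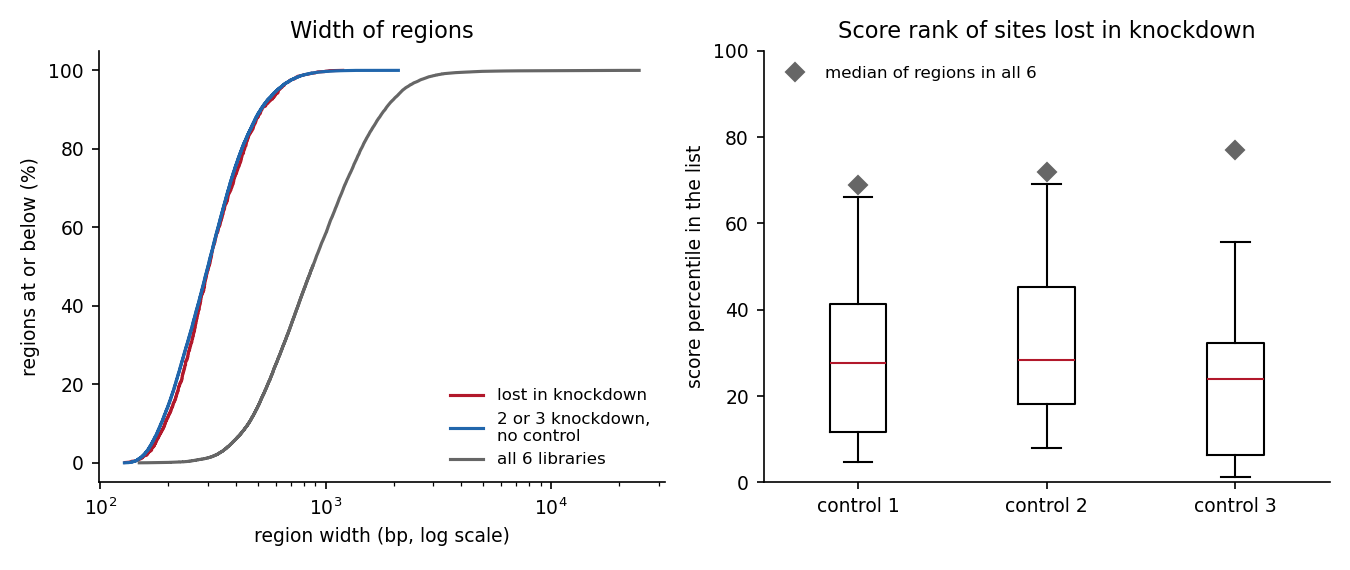
Left, cumulative share of regions (%) by width (bp, log scale) for sites lost in knockdown, regions called in 2 or 3 knockdown and no control library, and regions called in all 6. Right, score percentile of the lost sites in each control list (box, quartiles; line, median; whiskers, 5th and 95th percentile), with the median of regions called in all 6 as a diamond. The first 2 curves nearly coincide, with medians of 303 and 300 bp, and the box medians of 24.0 to 28.4 lie far under the diamonds at 68.8 to 77.0.

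The control libraries did not share the sites evenly. Control replicates 1 and 2 alone called 573 of them (44.9%), replicates 2 and 3 alone 296, replicates 1 and 3 alone 210, and all 3 control libraries 197 (15.4%). Those 197 were 0.129% of all regions on these chromosomes, against 11831 regions (7.72%) with 3 knockdown calls and no control call. Control replicate 3, the longest control list, thus took part in the fewest lost sites, which made up 1.04% of its peaks against 1.94% and 1.996% in control replicates 1 and 2. The sites called in all 3 control libraries were wider (median 393 bp) and higher in rank (median of the mean percentile 34.3) than those called in 2 (291 bp and 25.2). Without control replicate 1, 2 or 3 the sites numbered 500, 421 and 773, since both remaining control libraries then had to call them, and without knockdown replicate 2 they numbered 1973. The sites called in all 3 control libraries numbered 301 without knockdown replicate 1 and 395 without knockdown replicate 2.

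Just outside the rule lay the regions with a single knockdown call. Regions called in 2 control libraries and 1 knockdown library numbered 1048, against 1079 called in 2 control libraries and no knockdown library. Their median width was 352 bp against 291 bp, and their median control percentile 26.2 against 25.2. Regions called in all 3 control libraries and 1 knockdown library numbered 342, against 197 with no knockdown call. A call in 1 control library and no other was far more frequent, with 15117 regions at a median width of 168 bp and a median percentile of 11.7. With each list cut to the 50719 strongest peaks, 4385 regions met the rule, and 891 of the 1276 sites (69.8%) overlapped one of them. A cut only removes peaks, so a site could drop out by losing control peaks but not by gaining a knockdown call. The control lists keep lower ranks than the knockdown lists under this cut.

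A few sites stood high in every control list. The highest was chromosome 22:18879940-18880094, with percentiles of 95.0, 93.7 and 95.0 in control replicates 1, 2 and 3. It is 155 bp wide, 299 bp from the nearest knockdown peak, and 3 regions called in all 6 libraries lay within 5 kb of it. The next was chromosome 17:122808-123095, with 87.4, 86.4 and 87.2, and the nearest knockdown peak 12402 bp away. Chromosome 19:54637227-54637517 had 81.9, 90.5 and 80.1, and a knockdown peak lay 136 bp away. Chromosome 19:16044700-16044886 had 78.1, 89.8 and 87.9, with the nearest knockdown peak 91688 bp and the nearest region called in all 6 libraries 141810 bp away. Chromosome 2:132769868-132770041 had 76.6, 69.1 and 83.6, with a knockdown peak at 152 bp. The sites on chromosome 17 and at 16 Mb on chromosome 19 had no other region of any library within 5 kb, so those 2 stood alone, while the site on chromosome 22 sat among regions called in all 6 libraries.

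Only 15 of the 197 sites called in all 3 control libraries stood above the middle of all 3 lists. Of the 20 whose lowest percentile was highest, 10 were at most 3 Mb from the longest peakless stretch of their chromosome, that is, the longest run with no peak in any library. Such stretches, 3.0 to 21.05 Mb long, hold as background the centromeres, heterochromatin and unassembled short arms of hg19. These 10 included chromosome 4:49517781-49518308, chromosome 7:56893720-56893916, chromosome 21:10162187-10162575, chromosome 1:143277502-143277827 and chromosome 8:43818833-43819212. Chromosome 4:10008-10184 was the first peak of its chromosome in any list, with percentiles of 47.0, 91.7 and 80.1. A knockdown peak lay within 1 kb of 9 of the 20, and none within 10 kb of 5 others. The 5 widest sites called in all 3 control libraries measured 915 to 1190 bp and were led by chromosome 2:91916732-91917921 and chromosome 12:121928142-121929166.

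Genes were placed by textbook positions on hg19, since no annotation of that build was used here, and the list was written after the positions of the sites were known. It covers only genes whose position is well known, so no share of sites in genes can be read from it. Of the 197 sites called in all 3 control libraries, 29 lay inside 28 such genes whose length differed by at most 10% from the RefSeq length on GRCh38. Their lowest control percentile had a median of 14.9 and a range of 0.872 to 86.4, so most were among the weaker peaks of at least 1 list. A knockdown peak lay within 1 kb of 9 of the 29, and none within 10 kb of 9 others.

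Among these were several genes of chromatin and transcription control. KMT2A, a histone H3 lysine 4 methyltransferase, held a 335 bp site at chromosome 11:118307428-118307762, with percentiles of 41.4, 28.4 and 6.45 in control replicates 1, 2 and 3, 146 bp from a region called in all 6 libraries. HDAC4, a class IIa histone deacetylase that restrains MEF2 factors in the heart, held one at chromosome 2:240142964-240143202 with percentiles of 47.0, 28.4 and 14.9 and a knockdown peak 572 bp away. MECOM, a zinc finger transcription factor known from blood stem cells, held chromosome 3:169299446-169299937 with percentiles of 66.2, 69.1 and 24.0, and the nearest knockdown peak was 6011 bp away. NFYC, a subunit of the CCAAT-binding factor NF-Y, had percentiles of 27.7, 57.4 and 24.0 at chromosome 1:41223067-41223459. BRF1, a subunit of the RNA polymerase III initiation factor, had 34.9, 8.07 and 14.9, with a knockdown peak 307 bp away. In KMT2A, HDAC4, MECOM and NFYC the percentile was lowest in control replicate 3, and in BRF1 in replicate 2. The sites of KMT2A, HDAC4 and BRF1 had knockdown peaks within 1 kb.

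The 2 best ranked of these sites have been given above. The site at 16 Mb on chromosome 19 lay in CYP4F11, a cytochrome P450 that hydroxylates fatty acids, and that on chromosome 17 in RPH3AL, an effector of Rab GTPases in exocytosis. SLC14A2, a urea transporter of the kidney, held a site at chromosome 18:42904416-42904820 with percentiles of 19.8, 18.1 and 32.3, which lay 436597 bp from the nearest region called in all 6 libraries. FGGY, a carbohydrate kinase, was the 1 gene with 2 sites, at chromosome 1:60017572-60018052 and chromosome 1:60103862-60104161. The first had percentiles of 41.4, 57.4 and 1.28 and the second 60.1, 45.3 and 14.9, and their nearest knockdown peaks were 44146 and 12614 bp away. MME, the membrane peptidase neprilysin, and ARL15, a small GTPase of the ARF family, had lowest percentiles of 19.8 and 39.5.

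The other sites had lowest percentiles of 0.872 to 34.9. COL4A2, a chain of basement membrane collagen IV, had percentiles of 19.8, 57.4 and 39.5 at chromosome 13:111037804-111038046. PTN, which encodes the secreted growth factor pleiotrophin, had 19.8, 74.5 and 39.5. SCUBE1, a secreted and membrane-bound EGF-domain protein, held an 854 bp site with 76.6, 72.0 and 14.9. ASTN2, which takes part in the migration of neurons, had 51.9, 69.1 and 32.3, and CALN1, a neuronal calcium-binding protein, 51.9, 28.4 and 39.5. DYNC1I1, a dynein intermediate chain, had 66.2, 45.3 and 14.9. HYDIN, a protein of the axoneme of motile cilia, had 27.7, 8.07 and 14.9, with a knockdown peak 123 bp away. HYDIN and NBPF1 have near-identical copies elsewhere in the genome, and how reads that match several places were treated is not given in the sources used here. RAD51B, a recombination protein, had 34.9, 37.5 and 45.6. The other genes were TTC34, LRRN2, LINC00299, ANO10, PLEKHG1, TNRC18, CPED1 and WDR90, with lowest percentiles of 0.872 (LRRN2) to 24.0 (TTC34).

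The lost sites had a lower median distance to constant regions than the sites of the opposite pattern. Their median distance to the nearest region called in all 6 libraries was 14754 bp, against 24835 bp for the opposite pattern. The gap was small among sites with no peak of the other group within 1 kb (27933 against 29446 bp) and with the stronger part of each list (40361 against 41696 bp). Within 1 kb of such a region lay 14.5% of the lost sites against 6.21%, within 10 kb 43.1% against 29.9%, and beyond 100 kb 13.7% (175 sites) against 17.3%. Of the regions called in 1 control library and no other, 48.7% lay within 10 kb. The 573 sites of control replicates 1 and 2 lay farther from constant regions (median 19884 bp) than the 296 of replicates 2 and 3 (9080 bp) or the 210 of replicates 1 and 3 (10845 bp).

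Many lost sites had a knockdown peak close by that did not reach them. The median distance to the nearest knockdown peak was 1652 bp. A knockdown peak lay within 1 kb of 490 of the 1276 sites (38.4%), within 100 bp of 65 and within 50 bp of 33, and none lay within 10 kb of 241 (18.9%). Regions called in 1 control library and no other came close to this, with a median of 1842 bp and a knockdown peak within 1 kb for 36.8%. For the opposite pattern, the nearest control peak was at a median of 8069 bp and within 1 kb for 13.6%. The knockdown lists hold more peaks than the control lists, so these 2 distances are not measured against equal numbers of peaks. Without the 490 sites, 786 remained. The part of the placement of peak edges in these calls was not tested.

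**Figure D2:**
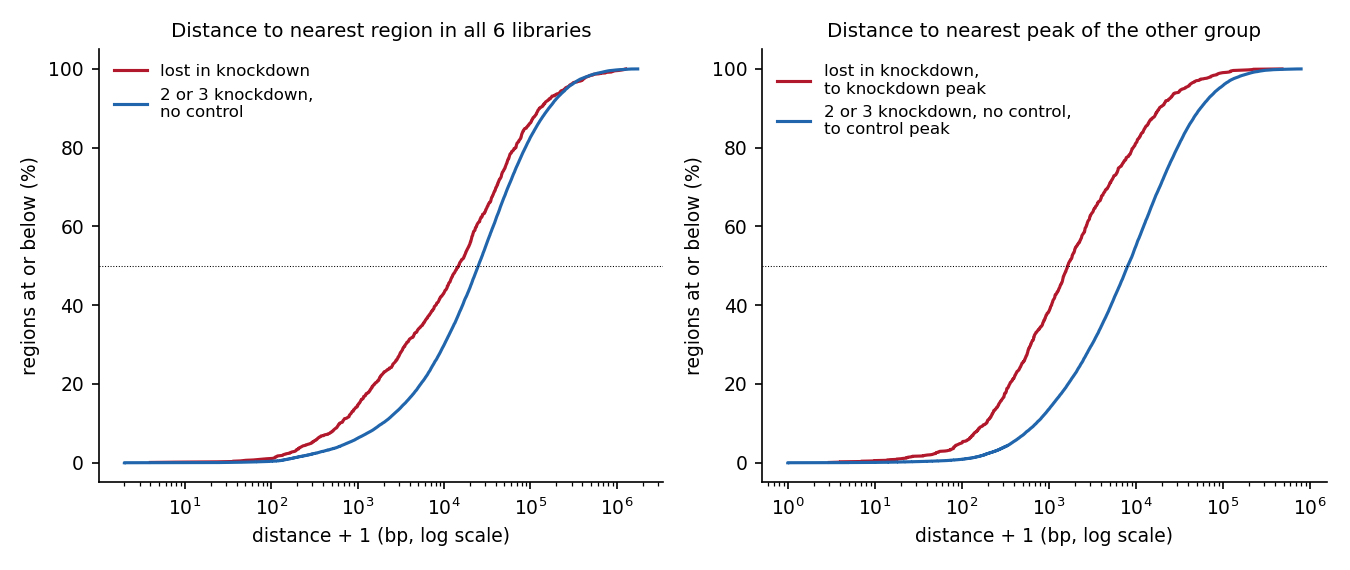
Cumulative share of regions (%) by distance + 1 (bp, log scale) to the nearest region called in all 6 libraries (left) and to the nearest peak of the other group (right), for sites lost in knockdown and for regions called in 2 or 3 knockdown and no control library. The curve of the lost sites lies left of the other in both panels, with medians of 14754 against 24835 bp on the left and 1652 against 8069 bp on the right.

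By number, most lost sites lay on chromosome 1 (144) and chromosome 2 (87), and as a share of a chromosome's own regions they were most frequent on chromosomes 21 and 15. Lost sites made up 2.41% of the regions of chromosome 21 (60 of 2486) and 1.49% of those of chromosome 15 (80 of 5353), against a median of 0.822% over the 22 chromosomes. The lowest shares were those of chromosome 6 (0.479%), chromosome 18 (0.492%) and chromosome 20 (0.498%). Both high values came from regions beside the longest peakless stretch. Beyond 3 Mb, chromosome 21 had 0.644% (12 sites) and chromosome 15 had 0.505% (25 sites), and all chromosomes lay between 0.396% (chromosome 20) and 0.996% (chromosome 19). The regions with the opposite pattern were scarcest on chromosome 19, at 9.88% of its regions, and made up 15.3% on chromosome 21.

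**Figure D3:**
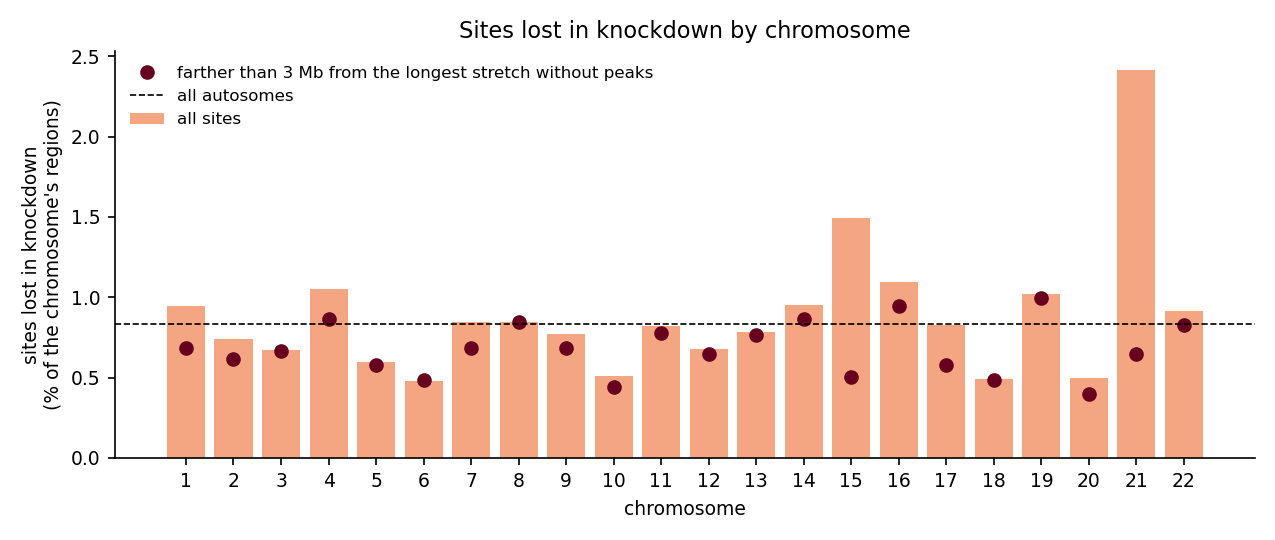
Sites lost in knockdown as a share of the regions of each chromosome (%, bars), the same share among regions farther than 3 Mb from the longest peakless stretch (points), and the share over all autosomes (dashed line, 0.833%). Chromosomes 21 and 15 stand out as bars, at 2.41% and 1.49%, but not as points, at 0.644% and 0.505%.

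In all, 289 of the 1276 lost sites (22.6%) lay within 3 Mb of such a stretch, against 2.71% of the regions with the opposite pattern, 5.34% of those called in all 6 libraries and 5.04% of all regions. Of the 7721 regions near a stretch, 3.74% were lost sites and 10.3% had the opposite pattern. Of the 145441 regions farther away, 0.679% were lost sites and 19.7% had the opposite pattern. Among regions called in all 3 control libraries, the share near a stretch was 27.9% with no knockdown call, 35.1% with 1, 24.2% with 2 and 5.34% with 3, so that it was high next to the rule as well as inside it. Peaks within 3 Mb of a stretch numbered 4918, 4899 and 3910 in the knockdown lists and 3624, 3957 and 3936 in the control lists, so their number overlapped between the groups. As a share of the autosomal peaks they were 4.37, 4.92 and 4.58% in knockdown against 7.37, 7.60 and 5.92% in control. Of the lost sites, 11.6% lay within 1 Mb of the first or last peak of their chromosome, against 2.03% of the opposite pattern and 3.79% of all regions, but on chromosomes with a short arm that has no peaks the first peak is itself beside the stretch. As background, these parts of the genome are rich in repeats and duplicated segments.

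Most bins of 1 Mb with a lost site held a single one, and a minority of the sites lay in dense groups. They fell into 723 bins of 1 Mb, 506 of which held 1 site, while the 10 bins with most sites held 198 (15.5%) in 1.33% of all regions. Of the regions in those 10 bins 9.75% were lost sites and 2.26% had the opposite pattern, against 0.833% and 19.2% over all regions. Outside the 10 bins 0.713% of regions were lost sites. For 118 sites (9.25%) the next region on at least one side was also a lost site, and outside the 10 bins for 70 of 1078 (6.49%). This share was 4.6% without control replicate 1, 3.33% without control replicate 2 and 14.5% without knockdown replicate 2. Of the sites of the opposite pattern, which are far more numerous, 39.7% had a neighbour of their own kind. Of the 10 bins, 8 lay within 3 Mb of a peakless stretch, and the other 2 lay near the end of the long arm of chromosome 4 and on the short arm of chromosome 3.

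Chromosome 15:22000001-23000000 held the most lost sites, 29 of its 176 regions. All its peaks together numbered 30, 55 and 30 in the knockdown libraries, against 77, 92 and 73 in the control libraries. The groups did not overlap there, but with the lost sites left out the control libraries had 60, 64 and 52 peaks and the groups overlapped. Chromosome 15:20000001-21000000 held 22 lost sites, and its peaks numbered 112, 128 and 90 in knockdown against 135, 151 and 132 in control. Chromosome 4:49000001-50000000 held 17, with 99, 103 and 94 peaks in knockdown against 128, 136 and 129 in control. It was the 1 bin of the 10 in which the groups stayed apart without the lost sites, at 114, 120 and 117 peaks in control. The bins were picked for their lost sites, so these differences are no test. The share of all bins in which the groups do not overlap is not given here.

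In the other 7 bins the groups overlapped. Chromosome 1:143000001-144000000 (25 lost sites) had 68, 97 and 58 peaks in knockdown against 120, 116 and 97 in control. On the short arm side of chromosome 21, the bin at 10000001-11000000 (23 sites) had 151, 181 and 118 peaks in knockdown against 193, 190 and 178 in control. The bin at 9000001-10000000 (21 sites) had 113, 162 and 98 against 168, 181 and 139. Knockdown replicate 2 came nearest to the control libraries in each of these 3. Chromosome 4:190000001-191000000 (16 sites) had 144, 208 and 119 peaks in knockdown against 206, 216 and 183 in control, so that knockdown replicate 2 stood between the control libraries. Chromosome 1:142000001-143000000 and chromosome 17:21000001-22000000 held 18 sites each and chromosome 3:75000001-76000000 held 9. The mean number of peaks was lower in knockdown than in control in all 10 bins, with the lost sites that chose the bins included. Without them it was lower in 9, and in the chromosome 3 bin it was 81.7 in knockdown against a mean of 80 in control.

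**Figure D4:**
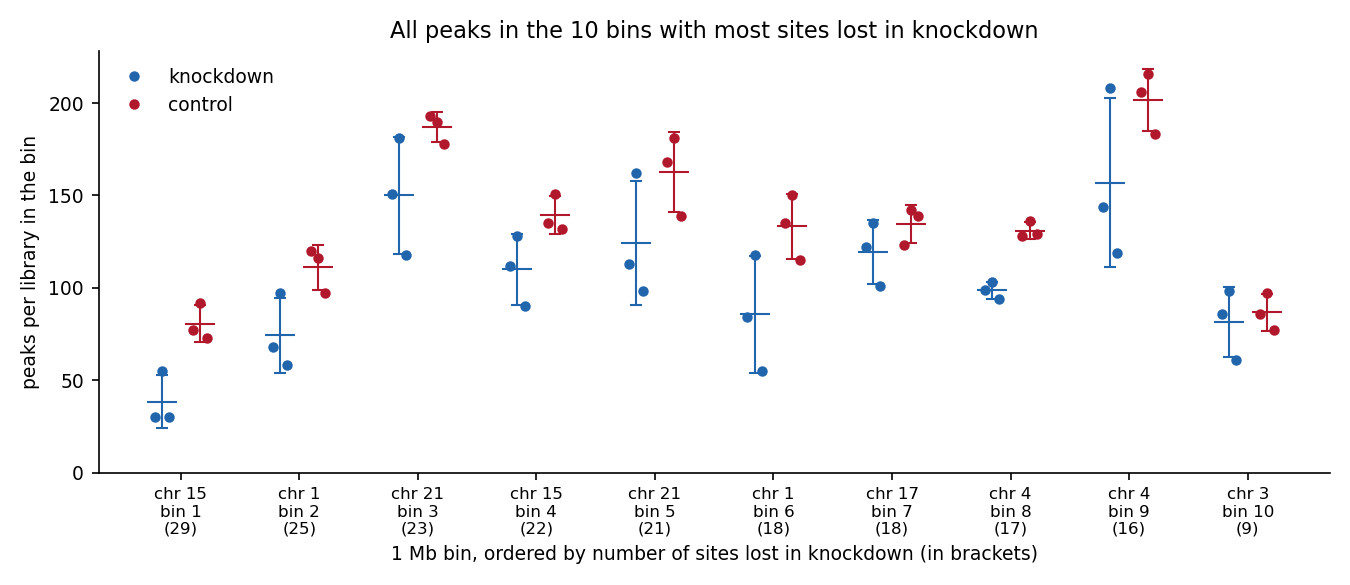
Number of peaks per library in the 10 bins of 1 Mb with most sites lost in knockdown, in falling order of lost sites (in brackets), for knockdown and control libraries (points; bars, mean ± SD, n = 3 each). With the lost sites included the means are lower in knockdown in all 10 bins, and the points of the groups do not overlap in the bins ranked 1, 4 and 8. The bins were picked for their lost sites, and the share of all bins without overlap is not given.

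Groups of at least 3 lost sites with gaps of at most 50 kb numbered 50, a rule set after the data were seen, and held 288 sites (22.6%). Of the 1751 regions inside them, 10.97% were called in all 6 libraries, against 18.2% of all regions. The opposite pattern held for 1.94% (34), against 19.2% of all regions, and 30 of the 50 groups held no region of that pattern. The groups were built from lost sites, so these shares are no test. The largest, chromosome 15:22387170-22581473, held 29 lost sites, 7 of them called in all 3 control libraries, among 140 regions, with a single one called in all 6 libraries. Of the 50 groups, 27 lay within 3 Mb of a peakless stretch (192 sites) and 23 did not (96 sites).

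Among the 23 farther groups were chromosome 22:22613573-22648581, where 4 of 7 regions were lost sites and no knockdown library called any of the 7, and chromosome 11:65385819-65390524, where 3 of 5 regions were lost sites and no knockdown library called any of the 5. Chromosome 3:52092215-52122832 held 3 among 6 regions and chromosome 2:96588567-96616833, which lay near a stretch, 3 among 4.

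The group on chromosome 22 lay in the immunoglobulin lambda locus, and the antigen receptor loci held unequal shares of lost sites. By textbook positions, the immunoglobulin heavy chain locus held 9 lost sites among 72 regions (12.5%), the lambda locus 4 of 62 (6.45%), the kappa locus 1 of 30 (3.33%) and the T cell receptor alpha and delta locus 0 of 62. All peaks at the heavy chain locus numbered 14, 22 and 16 in knockdown against 29, 45 and 33 in control, without overlap. At the kappa locus they numbered 16, 15 and 15 in knockdown against 18, 19 and 19 in control. At the lambda locus they numbered 31, 27 and 21 in knockdown against 14, 21 and 26 in control, so that the groups overlapped there and the mean was higher in knockdown. At the T cell receptor alpha and delta locus they numbered 46, 38 and 31 in knockdown against 15, 10 and 22 in control, apart in the other direction. The loci were compared with their lost sites included and carry no test. The share of all loci in which the groups do not overlap is not given here. The 4 KRAB zinc finger gene clusters of chromosome 19 that were looked at held 0 of 105, 2 of 108, 0 of 116 and 3 of 243 regions, together 0.874%, which is near the 0.833% of all regions. The 4 HOX clusters and the clustered protocadherins held none, among 26, 45, 10, 19 and 37 regions, a number so small that the share of all regions gives about 1 site. The MHC held 3 of 378 (0.794%).

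Whether such sites come back in a library that did not choose them was read from held-out libraries. Regions were chosen that 2 control libraries called and 2 knockdown libraries did not, and the calls of the control and the knockdown library left out were then counted. Without replicate 1, 732 regions were chosen, and 32.7% of them were called in knockdown replicate 1 against 40.6% in control replicate 1. Without replicate 2, 721 were chosen, with 43.6% called in knockdown replicate 2 against 54.5% in control replicate 2. Without replicate 3, 860 were chosen, with 10.5% called in knockdown replicate 3 against 28.3% in control replicate 3. The share was lower in knockdown in all 3 choices, and in all 9 when the numbers left out could differ. The 9 are not separate readings. Regions called in the held-out control library numbered 297, 393 and 243 without knockdown replicates 1, 2 and 3, whichever control was left out. Each of these counts includes the same 197 sites called in all 3 control libraries.

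The mean share was 28.9 ± 16.86% in the held-out knockdown libraries and 41.1 ± 13.13% in the held-out control libraries (SD, n = 3 each), a difference of -12.2 percentage points. The ranges overlapped, and a test that left the shares unpaired gave p = 0.5 (exact permutation test, two-sided, where 0.1 is the smallest possible). Both shares of a choice were read on the same regions, so the spread in that test includes the spread between the 3 chosen sets. With the shares kept paired, an exact sign-flip test gave p = 0.25. That is its smallest possible value, so it cannot decide the question. The 3 choices also share libraries, and each contains the same 197 sites called in all 3 control libraries, so they are not independent. Of all regions, 71.1, 62.2 and 52.9% were called in knockdown replicates 1, 2 and 3 against 29.2, 30.8 and 39.6% in control replicates 1, 2 and 3. Of regions called in the same 2 control libraries, whatever the knockdown calls, the held-out libraries called a mean of 95.5% in knockdown and 86.5% in control. On average, 28.9% of the chosen regions were therefore called in the knockdown library that had not been used to choose them, and 41.1% in the control library.

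For the opposite choice, regions called in 2 knockdown and not in 2 control libraries, the means were 73.5% in the held-out knockdown libraries and 17.9% in the held-out control libraries. With lists cut to equal length by score, the regions called in 2 control and not in 2 knockdown libraries were called in 14.2, 23.6 and 14.6% by the held-out knockdown libraries against 63.4, 63.6 and 38.3% by the held-out control libraries. The groups did not overlap then, with a difference of -37.6 percentage points (exact permutation test, two-sided, p = 0.1, the smallest possible). Under the same cut the opposite choice also kept the groups apart. Its shares were 76.0, 70.4 and 67.4% in the held-out knockdown libraries against 22.8, 18.5 and 42.3% in the held-out control libraries. The cut drops more peaks from the knockdown lists, so a missing knockdown call can be a dropped weaker peak. Farther than 3 Mb from a peakless stretch, the means were 27.8% in knockdown and 38.3% in control, and nearer 31.5% and 48.7%.

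**Figure D5:**
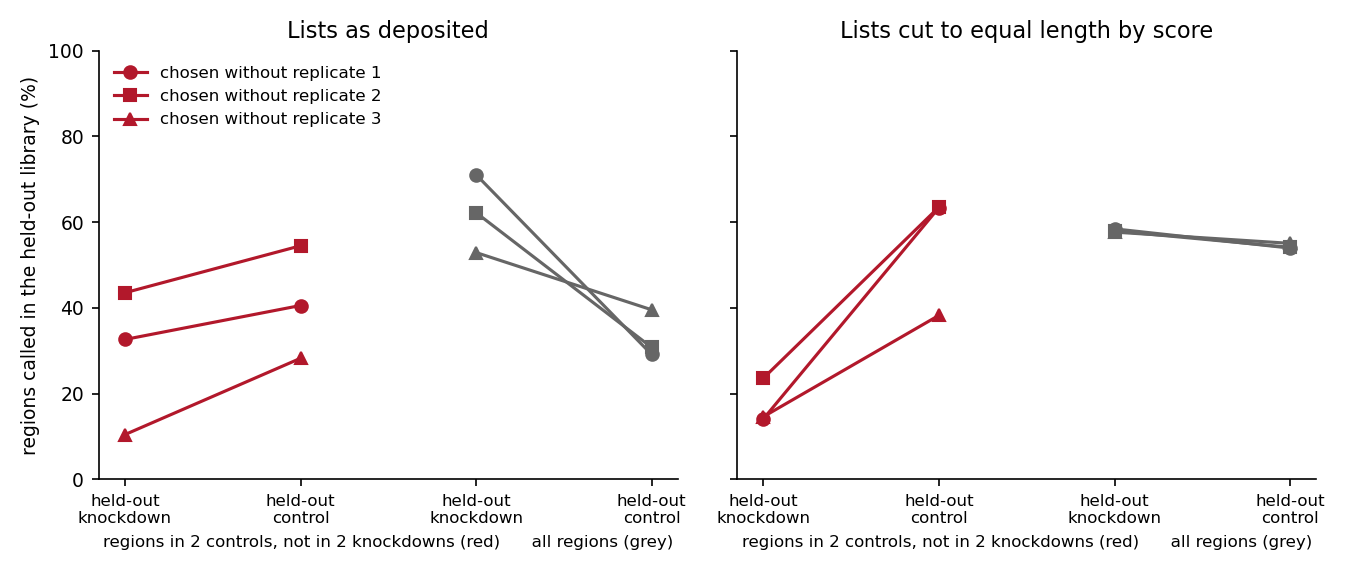
Share of regions (%) called in the held-out knockdown library and in the held-out control library, for regions called in the other 2 control and not in the other 2 knockdown libraries (red) and for all regions (grey), each line 1 choice of the replicate left out. Red lines are lower at knockdown in both panels, with 10.5 to 43.6% in knockdown and 28.3 to 54.5% in control for the lists as deposited (left) and more steeply with lists of equal length (right).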

How the data were processed

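The deposited data are 1 peak list per library, 3 of ZNF436 knockdown and 3 of control, with a position and a score per peak. The scores are the authors' deposited values, and each list was called on 1 library, to judge by peak names that start with MACS and the name of that library. The submitters' processing notes name hg19, Bowtie2 2.4.5 and bedtools 2.30.0, with no role or order. The caller's version, its threshold, the handling of Tn5 shifts and duplicates, and the depth are not stated in those notes or the labels. Without counts, no interval for depth could be given.

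Peaks sharing at least 1 bp were merged with Python 3.11.15, pandas 2.3.3, numpy 2.4.6 and scipy 1.17.1. Scores were used only as percentiles within a list, with ties counted as one part lower and one part higher in equal shares. Distances are gaps in bp. A peakless stretch is the longest run of a chromosome with no peak in any library. Steps were checked on simulated lists.

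The members and lists were chosen with earlier results of these data known. Named regions are, among sites called in all 3 control libraries, the 20 whose lowest percentile was highest and the 5 widest, and the 10 bins of 1 Mb with most sites. Regions elsewhere in the text were chosen after their values were seen. Gene and locus positions on hg19 come from general knowledge. The 35 gene spans were written after the sites were known, and the 28 whose length was within 10% of RefSeq on GRCh38 were kept, a limit also set after the ratios were seen. No sequence is printed, since no hg19 genome was used here. Held-out shares were compared with an exact two-sided permutation test over libraries.

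Replicate numbers were not used to pair the libraries in the main test. Deviations from group means over 2708 bins correlated at 0.037, 0.126 and 0.092 for equal numbers, and at -0.152 to 0.053 for unequal numbers. Knockdown replicates 2 and 3 correlated most with the control of equal number, and knockdown replicate 1 with control replicate 3 (0.053). All these correlations were weak, so whether the numbers pair the libraries is not settled. A few genes are not reported here.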

Additional observations from a re-analysis of the deposited data

How the results depend on the processing

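The number of lost sites depended on the lists. It was 635 with the stronger part of each list above its median score, 4385 with lists of equal length by score, 6463 with lists thinned at random to equal length, 786 with no knockdown peak allowed within 1 kb and 197 with all 3 control libraries required. Leaving out 1 library gave 421 to 1973. It was 1284 with peaks up to 100 bp apart merged. The planned overlap of 50% of a peak changed nothing, since a merged region always contains its peaks. Chosen after seeing the data, a rule that peaks cover 50% of the region gave 1388, and sites farther than 3 Mb from a peakless stretch numbered 987. Of the 1276 sites, 891 (69.8%) overlapped a lost site with lists of equal length by score and 1083 (84.9%) with thinned lists, but 104 (8.15%) with the stronger part of each list and 487, 403 and 765 without control replicates 1, 2 and 3. Cutting and thinning only remove peaks, so there a site could drop out only by losing control peaks. Of 117 descriptive values under these alternatives, 69 moved by more than 1 SD over the control libraries, or 1.5 times for counts. The share of sites next to another ranged from 2.03 to 26.6%, and the median distance to a constant region from 10581 to 178463 bp. Recomputed for both patterns alike, a comparison chosen after seeing the data, the median was lower for the lost sites in all 14 settings. Chromosomes 21 and 15 held 4.70 and 6.27% of all lost sites, against 1.62 and 3.49% of all regions. Farther than 3 Mb from a peakless stretch they held 1.22 and 2.53% of the lost sites. Lost sites made up 0.644 and 0.505% of the regions of chromosomes 21 and 15 there, against 0.679% of all regions that far away.

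The held-out difference was negative under every alternative run, but not all of these runs could give another sign. It was negative in each choice of equal numbers, so pairing by number and leaving out 1 pair had to give a negative value. The cuts by score drop more peaks from the knockdown lists than from the control lists. With the replicate number as a replicate block it was -12.2 percentage points (exact sign-flip test, p = 0.25, the smallest possible), and leaving out 1 pair gave -14.4 to -9.44. Calls without read counts cannot separate a lost site from one just under the threshold, and depth was unknown.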

Other observations

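Chromosome X lay outside the rule. There, 27 of 4153 regions (0.650%) were called in 2 or 3 control and no knockdown libraries, 6 of them in all 3 control libraries, while 798 (19.2%) had the opposite pattern.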
